A study of Homo sapiens with 24 samples.

Results

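Regions of polyadenylated RNA that carried an m6A peak in each of 4 deposited peak lists are described here. The peaks of all lists were pooled, and peaks sharing at least 1 base on the same transcript were merged into a region. Of 20811 regions, 5340 (25.7%, 95% Wilson interval 25.1 to 26.3) held a peak from every list and are called shared regions. They were chosen by the presence of a peak in each list, so that presence is their definition and not a finding. U2OS, the line used, derives from a human osteosarcoma, and all cells were grown with 10 µM BrdU for 24 to 48 h. The conditions were METTL3 KO with UVC (KO plus UV), METTL3 KO without it (KO minus UV), wild type with UVC (WT plus UV) and wild type without it (WT minus UV). UVC was a 50 J dose, after which cells were kept for 2 min before lysis. The labels give 2 immunoprecipitated libraries for KO plus UV, 3 for KO minus UV, 4 for WT plus UV and 3 for WT minus UV, each with an input, and 1 list per condition. They do not say whether the KO is a single clone, and peak positions cannot show whether METTL3 protein was lost.

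N6-methyladenosine (m6A) is a methyl group on adenosines inside mRNA, which reader proteins use to direct splicing, translation and decay. Most of it is placed in the nucleus by the METTL3 and METTL14 complex at short motifs with a central AC, often near stop codons and in long internal exons. METTL16 methylates a few other targets, such as hairpins of MAT2A mRNA. PCIF1 methylates an adenosine next to the cap (m6Am), which antibodies against m6A can also bind. The lists hold positions along RefSeq transcripts with no score or count, and the depth of the libraries is unknown. With 1 list per condition there was no replicate spread to test against. The comparisons are therefore descriptions without a test, and Wilson intervals cover counting error alone.

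The letters of the RNA could be read at the transcript start, from RefSeq gene starts (GRCh38.p14). The first 30 transcribed bases are shown for EP300, a histone acetyltransferase gene and one of those with most shared regions, and for 7 genes on which the peaks of all lists ran from base 1 to the same last base. The capital at the left marks the first transcribed base, and GGAC, a common m6A motif, is in capitals where present. The 8 genes were chosen after their values were seen.
NAE1 (chr16:66830947-66830976, minus strand): Agtgcgcctgcgcgcttgtggagctggtgg
KARS1 (chr16:75647636-75647665, minus strand): Acttttgggtcgggccctccgggaagatgg
SAMD4B (chr19:39342421-39342450, plus strand): Acggcgcggtgacgcagcgcgacggcggcg
H4C12 (chr6:27831531-27831560, minus strand): Acaaagcgttgggtgagactcctcttgctc
SAR1A (chr10:70170485-70170514, minus strand): Gtacatccggcgagtagctggcggtcccgg
ARHGAP11B (chr15:30626128-30626157, plus strand): Ggtggctccgggtgtctgcagtggagctgg
TMEM126B (chr11:85628573-85628602, plus strand): Tccccgcccaccggcaagtcacatgagcca
EP300 (chr22:41092592-41092621, plus strand): GagaaggaggaGGACagcgccgaggaggaa
NAE1 (a subunit of the NEDD8 activating enzyme), KARS1 (the lysyl-tRNA synthetase), SAMD4B and the histone gene H4C12 began with A, and the other 4 did not. GGAC was found in EP300 only among these windows.

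A shared region began within the first 100 bases of the transcript in 735 cases, or 13.8% (12.9 to 14.7), against 14.1% (13.6 to 14.7) of the other regions. Their genes matched 584 gene starts, and the first transcribed base was A in 55.0% (50.9 to 59.0) of these. It was A in 51.1% (48.7 to 53.4) of 1740 genes with only other regions at the start, and in 44.3% of all 27305 gene starts. Among 5406 genes with peaks but none at the start, A stood first in 43.5% (42.2 to 44.9), and in the 2028 of them with a shared region elsewhere in 40.0% (37.9 to 42.2). Genes with a region at the start thus had A first more often than genes without, whether or not that region was shared. The gene start in the table need not be the start of the listed transcript. In the first 50 transcribed bases, GGAC was present in 21.9% (18.8 to 25.5) of the genes with a shared region at the start, against 19.5% (17.7 to 21.4) of the genes with only other regions there and 18.8% of all gene starts. On the other strand, read as GTCC, it was present in 14.9% (12.2 to 18.0), against 16.8% (15.2 to 18.7) and 17.6%. The intervals of the first 2 groups overlap for both motifs.

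The shared regions with a gene symbol lay on 3719 genes, 38.9% of the 9560 genes with a peak in any list. A single shared region was found on 2518 genes, 2 on 906, 3 on 237, and 4 or more on the rest. EP300 (chr22:41092592-41180077) carried 8, and all 8 of its regions were shared. Those at bases 5825 to 6385, 6386 to 6689, 6724 to 6985 and 7021 to 7614 lay close together. The count of 8 therefore depends on where peaks were split, and it was not recomputed for EP300 with wider merging. SRCAP, the ATPase of a remodelling complex that deposits H2A.Z (chr16:30699171-30741409), carried 6 of 6. KMT2D, a histone H3 lysine 4 methyltransferase (chr12:49018978-49060794), carried 8 of 16, so that as many of its regions were missing from at least 1 list. The forkhead factor FOXK1 carried 6 of 8, and the membrane protein HEG1 5 of 6. NSD1, a histone H3 lysine 36 methyltransferase, and the receptor NOTCH2 carried 5 of 9 each. JRK carried 5 of 8, KIAA1671 5 of 7, and TET3, which oxidises 5-methylcytosine in DNA, 5 of 12. These 10 genes led the count, with ties ordered by the bases covered in all lists. In all, 1360 genes (36.6% of the 3719) had no region that was not shared, and 428 of them had 2 or more regions. NDST1, an enzyme of heparan sulfate synthesis, followed EP300 and SRCAP among these with 5 regions.

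Peak boundaries on EP300 changed little between conditions in most regions. At bases 5825 to 6385 the peak measured 518 bases in KO plus UV, 540 in KO minus UV, 553 in WT plus UV and 541 in WT minus UV. At the transcript start it measured 137 bases in KO plus UV, 161 in KO minus UV, 133 in WT plus UV and 137 in WT minus UV, always from base 1. The exception lay at bases 7021 to 7614, with 357 bases in KO plus UV, 594 in KO minus UV, 347 in WT plus UV and 366 in WT minus UV, where KO minus UV alone was long. The shared regions of KMT2D were less alike. At bases 1491 to 2201 the summed width was 270 bases in KO plus UV, 643 in KO minus UV, 651 in WT plus UV and 500 in WT minus UV. At bases 15072 to 15470 it was 100 bases in KO plus UV, 376 in KO minus UV, 260 in WT plus UV and 329 in WT minus UV. KO plus UV was the shortest list in these and in 4 of the 8 shared regions in all. At bases 9451 to 9789, by contrast, it was 270 bases in KO plus UV, 170 in KO minus UV, 180 in WT plus UV and 289 in WT minus UV, and at bases 14631 to 14926 WT plus UV was the shortest. The region of KMT2D at bases 11861 to 12190 had no base covered by all lists, since the KO plus UV peak began at base 12091 and the WT plus UV peak ended at base 12087.

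Over all shared regions, 62.4% of the bases were covered in all 4 lists, 16.8% in 3, 10.6% in 2 and 10.2% in 1. The bases of a region covered by every list, called its core, numbered a median of 167 (quartiles 129 and 204). A core need not be unbroken, and 4614 regions (86.4%) had a core of 100 bases or more. A core was absent in 70 regions (1.31%), where the lists were joined through each other. Exactly 1 peak per list was found in 4483 regions (84.0%), and no list contributed more than 4 peaks to a region. In these 4483, the widest list exceeded the narrowest by a median of 1.24-fold (quartiles 1.10 and 1.54), and by less than 1.5-fold in 3250 (72.5%).

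Peak centres lay closest between the WT lists. Their median distance was 7.5 bases between WT plus UV and WT minus UV, and 11 bases between the KO lists. It was 12 bases between genotypes with UV and 11 bases without UV. Across both factors it was 10 bases between KO minus UV and WT plus UV and 12.75 bases between KO plus UV and WT minus UV. Centres lay within 10 bases in 59.7% of the shared regions for the WT lists and in 44.8% to 51.6% for the other 5 pairs. Distances over all regions of a pair were not computed. The WT lists came from 4 libraries with UV and 3 without, and the KO lists from 2 and 3. An identical start in all lists was seen in 187 regions, of which 135 began at base 1, and an identical end in 80.

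Starts and ends both coincided in 14 regions, which were chosen after their values were seen. Away from the transcript start these were CBX5, which encodes the heterochromatin protein HP1 alpha (bases 262 to 418), PHAX, an adaptor for nuclear export of snRNA (1041 to 1256), ANKIB1 (3510 to 3681) and PTTG1IP (592 to 759). The others began at base 1 and were TMEM230, AKTIP, SRGAP2D and the 7 genes printed above with EP300. ARHGAP11B and SRGAP2D belong to duplicated families with near-identical copies, so their reads may be shared with another copy.

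The widest cores are ranked by their number of bases covered in every condition. POLR2A, the largest subunit of RNA polymerase II, had a core of 942 bases at 5210 to 6151, in a region at 5174 to 6244. Summed widths were 1047 bases in KO plus UV, 942 in KO minus UV, 994 in WT plus UV and 996 in WT minus UV. TNC, the matrix protein tenascin C, had a core of 916 bases, with 917 bases in KO plus UV, 920 in KO minus UV, 921 in WT plus UV and 922 in WT minus UV. The lists differed by at most 5 bases on TNC. PATZ1 followed with a core of 888 bases, the growth factor receptor ERBB2 with 771, and SOCS4, a suppressor of cytokine signalling, with 748. The cores of PATZ1, ERBB2 and SOCS4 were broken, lying within bases 431 to 1421, 3881 to 4702 and 563 to 1675 in that order. Among regions with 1 peak per list and an identical start or end, the widest lay at base 1 of WDR26, with 496 bases in KO plus UV, 310 in KO minus UV, 512 in WT plus UV and 513 in WT minus UV. INPP5A, ITGAV and SYNCRIP also shared base 1, with spans of 420, 405 and 400 bases. SSRP1, a subunit of the histone chaperone FACT, shared its end at base 2171, with 399 bases in KO plus UV, 376 in KO minus UV, 361 in WT plus UV and 371 in WT minus UV, both KO lists being the wider.

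Peaks in shared regions were wider than other peaks of the same list. Median widths were 188 bases against 160 in KO plus UV, 198 against 172 in KO minus UV, 204 against 180 in WT plus UV and 200 against 177 in WT minus UV. A wider peak has more bases on which another can overlap it, so width and membership are not independent. The smallest width, 100 bases, was found for 7.09% of the shared-region peaks and 13.5% of the others in KO plus UV, and for 3.21% and 7.91% in KO minus UV. In WT plus UV these shares were 1.70% and 6.30%, and in WT minus UV 4.26% and 8.67%. Shared regions held 61.2% of the KO plus UV peaks, 42.3% of KO minus UV, 37.6% of WT plus UV and 41.6% of WT minus UV, and the KO plus UV list was the shortest with 9471 peaks. The 2572 regions missing from KO plus UV alone were nearly as wide, with medians of 189 bases in KO minus UV, 200 in WT plus UV and 196 in WT minus UV. In shared regions the summed widths in these lists had medians of 202, 209 and 204 bases.

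**Figure D1:**
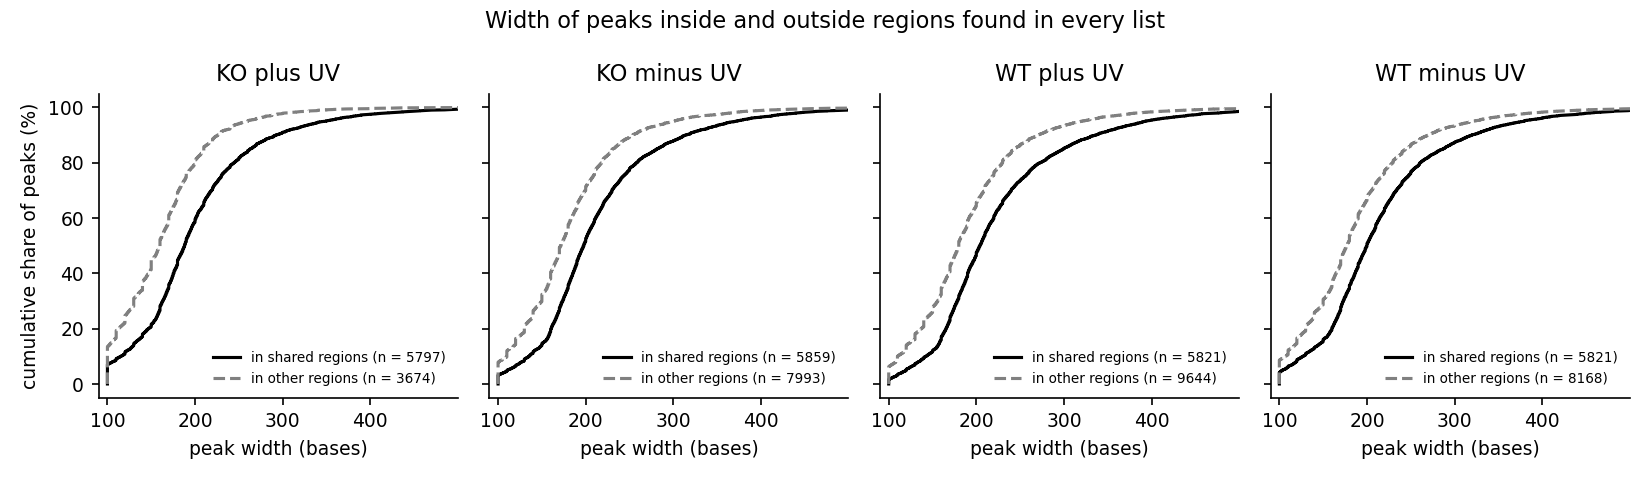
Cumulative share of peaks (vertical axis, %) by peak width (horizontal axis, bases, drawn to 500) in each list, for peaks in shared regions (black) and in all other regions (grey, dashed). The black curve lies to the right in each list, with medians of 188 against 160 bases in KO plus UV and 200 against 177 in WT minus UV.

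With UV, shared regions past 1.5-fold in summed peak width were mostly narrower in KO cells and mostly wider in WT cells. In KO plus UV over KO minus UV, 654 of 5340 shared regions (12.2%) were at least 1.5-fold narrower and 240 (4.49%) at least 1.5-fold wider. Over all 6943 regions with a peak in both lists, the shares were 12.0% and 4.59%. In WT plus UV over WT minus UV, 163 shared regions (3.05%) were narrower and 404 (7.57%) wider by that fold, against 4.83% and 8.20% of all 10250 regions in both WT lists. The KO shares of shared regions were near the background, and the WT shares lay below it. Most shared regions stayed within 1.5-fold, 4446 in the KO pair and 4773 in the WT pair. The median log2 ratio was -0.028 in KO and 0.0076 in WT, and both change sign when widths are divided by the median width of their list. The KO plus UV list came from 2 libraries against 3, and the WT plus UV list from 4 against 3, and the part of library number in these differences was not tested. A shared region was narrower in KO and wider in WT by that fold in 92 of 5340 cases, wider in KO and narrower in WT in 17, narrower in both in 32 and wider in both in 35. These counts need a peak in every list, so no wider set of regions could be set beside them.

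Between genotypes with UV, 803 shared regions (15.0%) were at least 1.5-fold narrower in KO plus UV than in WT plus UV and 162 (3.03%) wider, against 14.9% and 3.77% of all 7233 regions in these lists. Without UV, 340 (6.37%) were narrower in KO minus UV than in WT minus UV and 402 (7.53%) wider, against 8.29% and 7.83% of 8970. These last lists came from 3 libraries each. Here too the background includes the shared regions. Among regions of a pair that were not shared, 14.7% of 1893 were narrower and 5.86% wider with UV, and 11.1% and 8.26% of 3630 without UV. Of the 4483 regions with 1 peak per list, KO plus UV alone was the narrowest in 1632 (36.4%), against 606 (13.5%) for WT plus UV. In 1486 shared regions (27.8%) both KO lists were narrower than both WT lists, and in 635 (11.9%) both were wider. This order depended on the scale: with widths divided by the median width of each list, 836 were narrower and 1511 wider, and the 14 regions with identical ends are among the wider ones. Where a gene below is called narrower or wider in both KO lists, the order held on both scales unless stated. Widths and calls for a gene below are those of 1 shared region, picked in the gene lists by its core. Each width is summed over the peaks of a list in that region, and the number of peaks can differ between lists. Where a gene is said to span a range, the range runs from its smallest to its largest summed width. Other shared regions of the same gene can differ. As deposited, both KO lists were narrower on EP300 at bases 747 to 1003 and overlapped the WT lists at bases 4914 to 5116.

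**Figure D2:**
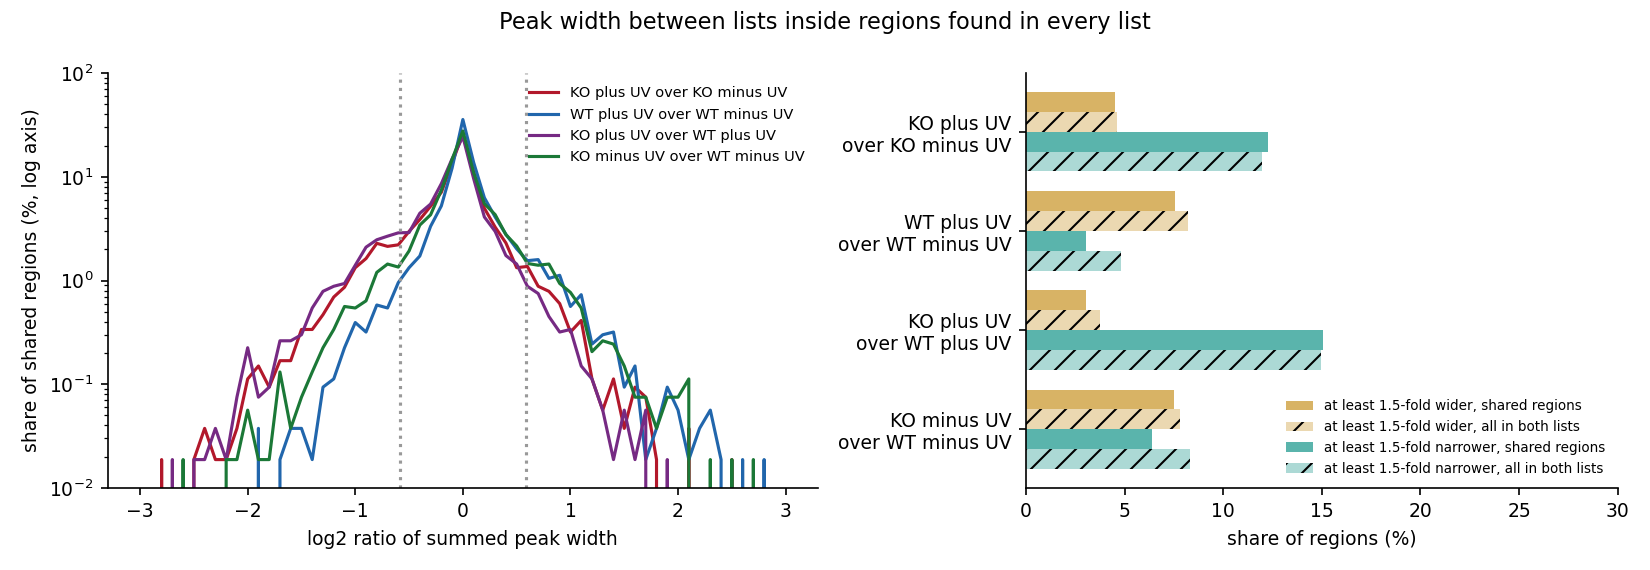
Left, share of shared regions (%, log axis) by log2 ratio of summed peak width for 4 pairs of lists, in bins of 0.1, with dotted lines at 1.5-fold. Right, share of regions (%) at least 1.5-fold wider or narrower, for shared regions (plain) and all regions found in both lists of the pair (hatched): KO plus UV over WT plus UV has the longest bars, at 15.0% and 14.9% narrower.

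The largest width ratios belonged to regions where at least 1 list had a short peak. IQCE, at bases 2458 to 2960, had 100 bases in KO plus UV, 447 in KO minus UV, 432 in WT plus UV and 408 in WT minus UV. BAZ2A, a subunit of a nucleolar remodelling complex, had 110 bases in KO plus UV, 423 in KO minus UV, 458 in WT plus UV and 440 in WT minus UV. CDC42EP2, an effector of the GTPase CDC42, had 100 bases in KO plus UV, 380 in KO minus UV, 330 in WT plus UV and 318 in WT minus UV. In these and in CTC1, a telomere capping protein with 100 bases in KO plus UV against 408 in WT plus UV, KO plus UV was the shortest list. PIGS, a subunit of the GPI transamidase, had 424 bases in KO plus UV, 100 in KO minus UV, 368 in WT plus UV and 404 in WT minus UV. ABT1 had 328 bases in KO plus UV, 100 in KO minus UV, 314 in WT plus UV and 337 in WT minus UV. KO minus UV alone was short in both. ZNF746 had 420 bases in KO plus UV, 100 in KO minus UV, 370 in WT plus UV and 100 in WT minus UV, and was long in both UV lists.

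In WT cells the widest with UV was RIPOR1, with 823 bases in KO plus UV, 841 in KO minus UV, 890 in WT plus UV and 130 in WT minus UV. CDH18, a cadherin, had 499 bases in WT plus UV against 100 in WT minus UV, and the transcription factor TFCP2 452 against 100. WT minus UV was the shortest list in all of these. The core was short or absent, with 18 bases on RIPOR1, 0 on CDH18 and 6 on TFCP2, so the lists lay partly at different places. The narrowest were ARVCF, with 140 bases in WT plus UV against 420 in WT minus UV, STARD3NL (129 against 333) and SMARCAL1, an annealing helicase of stalled replication forks (100 against 244). ARVCF and STARD3NL had no core, so their lists also lay partly at different places, and the core of SMARCAL1 was 70 bases. GANAB, the alpha subunit of glucosidase II, had 416 bases in KO plus UV, 441 in KO minus UV, 140 in WT plus UV and 110 in WT minus UV. PDCD11 had 340 bases in KO plus UV, 320 in KO minus UV, 120 in WT plus UV and 170 in WT minus UV. Both KO lists were longer than both WT lists on GANAB and PDCD11, which had cores of 110 and 10 bases. MYO18B, an unconventional myosin, had 383 bases in KO plus UV, 143 in KO minus UV, 152 in WT plus UV and 207 in WT minus UV, and KO plus UV alone was long. USP42, a deubiquitinase, had 119 bases in KO plus UV, 100 in KO minus UV, 437 in WT plus UV and 457 in WT minus UV, with both KO lists short. ITGAV, an integrin subunit, had 308 bases in KO plus UV, 100 in KO minus UV, 395 in WT plus UV and 405 in WT minus UV, with KO minus UV short.

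Along the transcript, shared regions made up 28.1% (27.0 to 29.3) of the regions that were the last of several on their transcript, 25.4% (24.2 to 26.6) of inner ones, 24.9% (23.8 to 26.0) of the first ones and 23.6% (22.3 to 25.0) of regions alone on a transcript. By position, 27.5% of the regions starting at bases 1001 to 2000 were shared, against 19.9% (17.9 to 22.1) beyond base 5000. In the longest quintile of genes by genomic length (median 191530 bases), 18.9% (17.7 to 20.1) of the regions were shared, against 27.8% (26.4 to 29.2) in the shortest (median 8367 bases). On noncoding transcripts 87 of 590 regions (14.7%, 12.1 to 17.8) were shared, against 26.0% (25.4 to 26.6) on coding ones. Neighbouring shared regions on 1 transcript, 1593 pairs in all, lay a median of 695 bases apart (quartiles 210 and 1548), and 1181 pairs had no other region between them. In 182 pairs the gap was 100 bases or less, and the smallest gap was 0.

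**Figure D3:**
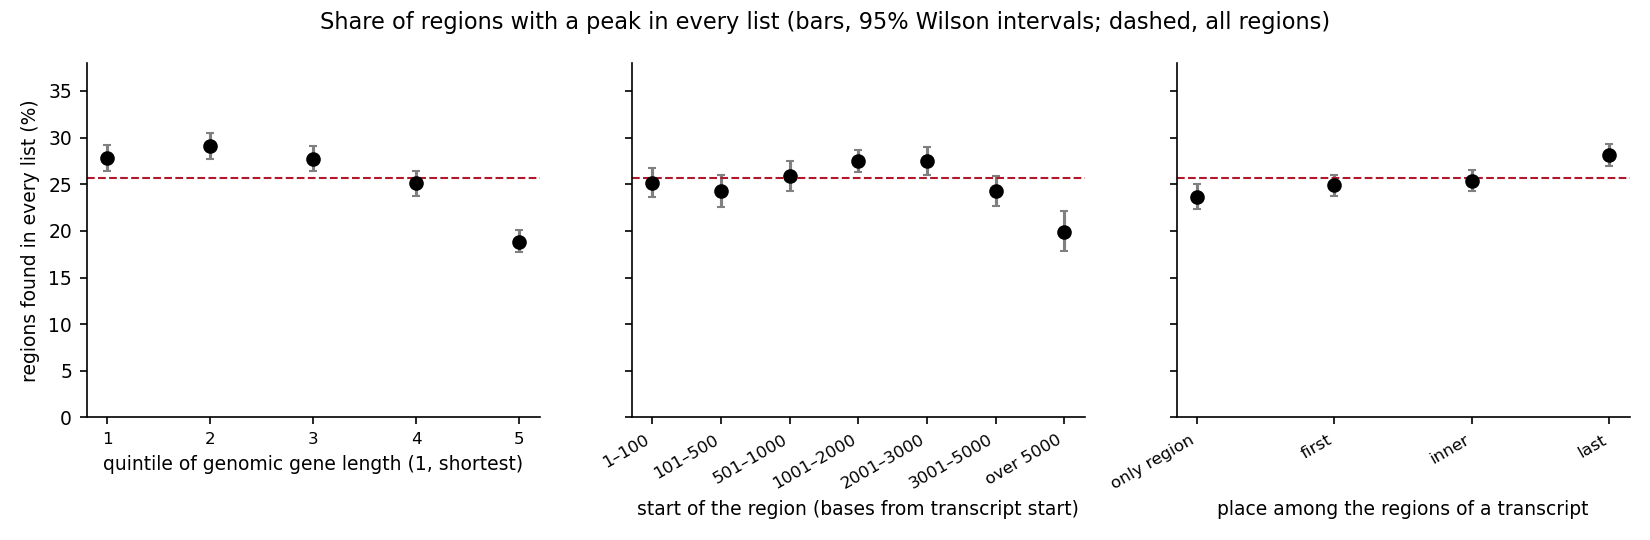
Share of regions that were shared by all lists (vertical axis, %) by quintile of genomic gene length, by start along the transcript in bases and by place among the regions of a transcript, with 95% Wilson intervals and a dashed line at 25.7%, the share over all regions. The share is 18.9% in the longest genes and 19.9% beyond base 5000.

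Transcripts of the m6A machinery carried 12 shared regions on 10 of 20 genes with a peak (50.0%, 29.9 to 70.1), beside 38.9% of all genes with a peak. Such gene shares take no account of the number of regions per gene, so counts of regions are given beside them. Of the 44 regions in this list 12 were shared, and of all regions 25.7%. METTL3 itself had a shared region at bases 494 to 725, with 227 bases in KO plus UV, 162 in KO minus UV, 229 in WT plus UV and 226 in WT minus UV. CBLL1, a partner of the METTL3 complex, had 430 bases in KO plus UV, 413 in KO minus UV, 485 in WT plus UV and 401 in WT minus UV. METTL16, the writer that acts on MAT2A, had 309 bases in KO plus UV, 454 in KO minus UV, 389 in WT plus UV and 374 in WT minus UV. KO minus UV was the narrowest on METTL3 and the widest on METTL16, where it held 2 peaks against 1 in each other list. PCIF1, the m6Am writer, had 265 bases in KO plus UV, 285 in KO minus UV, 288 in WT plus UV and 303 in WT minus UV. The demethylase FTO had 280 bases in KO plus UV, 280 in KO minus UV, 384 in WT plus UV and 507 in WT minus UV. IGF2BP2, a reader that stabilises its targets, had 115 bases in KO plus UV, 124 in KO minus UV, 209 in WT plus UV and 209 in WT minus UV. FTO and IGF2BP2 were narrower in both KO lists, and so was PCIF1 before but not after division by the list medians. The reader YTHDF2, which promotes decay, had 218 bases in KO plus UV, 384 in KO minus UV, 222 in WT plus UV and 219 in WT minus UV. Its KO minus UV width was summed over 2 peaks, and each other list held 1. The nuclear reader YTHDC1 spanned 235 to 336 bases, YTHDF1 100 to 192 bases and HNRNPC 235 to 264 bases.

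Transcripts on which m6A has been studied closely had a shared region on 5 of 6 genes, and 7 of their 21 regions were shared. ACTB, beta-actin, had 184 bases in KO plus UV, 183 in KO minus UV, 178 in WT plus UV and 182 in WT minus UV. MAT2A, the S-adenosylmethionine synthetase gene, had 188 bases in KO plus UV, 178 in KO minus UV, 178 in WT plus UV and 191 in WT minus UV. SON, a splicing cofactor, had 175 bases in KO plus UV, 184 in KO minus UV, 172 in WT plus UV and 185 in WT minus UV. The lists differed by under 20 bases on each of these, and ACTB was wider in both KO lists by at least 1 base. MYC had 233 bases in KO plus UV, 195 in KO minus UV, 234 in WT plus UV and 234 in WT minus UV, with KO minus UV the shortest. CREBBP was the fifth gene, but its single shared region of 7 had no base covered in all lists, and the count was 4 genes when 50 shared bases were required. MALAT1, a nuclear noncoding RNA, had no shared region. Of the 6 closely studied genes, 5 had a peak in KO plus UV and 6 in each of the other lists. Of 7 long noncoding RNAs with a peak, NORAD alone had a shared region (14.3%). It had 198 bases in KO plus UV, 473 in KO minus UV, 492 in WT plus UV and 745 in WT minus UV. These widths were summed over 1, 2, 3 and 4 peaks in that order, and were narrower in both KO lists.

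Immediate early genes, which growth factors and stress induce rapidly, had a shared region on 13 of 16 genes with a peak (81.2%, 57.0 to 93.4). Of their 29 regions, 18 were shared. The orphan nuclear receptor NR4A1 had 670 bases in KO plus UV, 643 in KO minus UV, 623 in WT plus UV and 629 in WT minus UV. EGR1, a zinc finger factor, had 216 bases in KO plus UV, 221 in KO minus UV, 203 in WT plus UV and 217 in WT minus UV. FOSL2, an AP-1 subunit, had 470 bases in KO plus UV, 490 in KO minus UV, 340 in WT plus UV and 523 in WT minus UV. NR4A1 was wider in both KO lists, and WT plus UV was the shortest on FOSL2. JUN, named after its values were seen, had 488 bases in KO plus UV, 230 in KO minus UV, 493 in WT plus UV and 298 in WT minus UV. Both UV lists, with 1 peak each, were thus wider than both lists without UV, with 2 peaks each. The others were JUNB, JUND, DUSP1, BTG2, CCN1, CCN2, IER2, IER3 and MYC.

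Damage response groups lay nearer to all genes. Of 20 p53 targets with a peak, 9 had a shared region (45.0%, 25.8 to 65.8), and 15 of their 47 regions were shared. The phosphatase PPM1D had 453 bases in KO plus UV, 449 in KO minus UV, 340 in WT plus UV and 436 in WT minus UV. The death receptor TNFRSF10B had 247 bases in KO plus UV, 236 in KO minus UV, 248 in WT plus UV and 246 in WT minus UV. SESN2 spanned 261 to 296 bases. PPM1D was wider in both KO lists, and on TNFRSF10B the lists differed by at most 12 bases. Nucleotide excision repair gave 8 of 21 genes (38.1%, 20.8 to 59.1) and 9 of 36 regions. The damage sensor XPC, also in the p53 list, had 440 bases in KO plus UV, 429 in KO minus UV, 488 in WT plus UV and 516 in WT minus UV, narrower in both KO lists. The nuclease ERCC5 had 420 bases in KO plus UV, 276 in KO minus UV, 456 in WT plus UV and 403 in WT minus UV. ERCC3, a helicase of TFIIH, spanned 234 to 323 bases, and the single-strand binding subunit RPA1 229 to 289 bases. Checkpoint genes gave 8 of 25 (32.0%, 17.2 to 51.6) and 11 of 60 regions. TP53BP1, a scaffold at DNA breaks, had 254 bases in KO plus UV, 265 in KO minus UV, 265 in WT plus UV and 258 in WT minus UV. The nuclease MRE11 spanned 166 to 174 bases, TIMELESS 235 to 348 bases and the phosphatase CDC25A 179 to 261 bases, of which CDC25A was narrower in both KO lists.

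**Figure D4:**
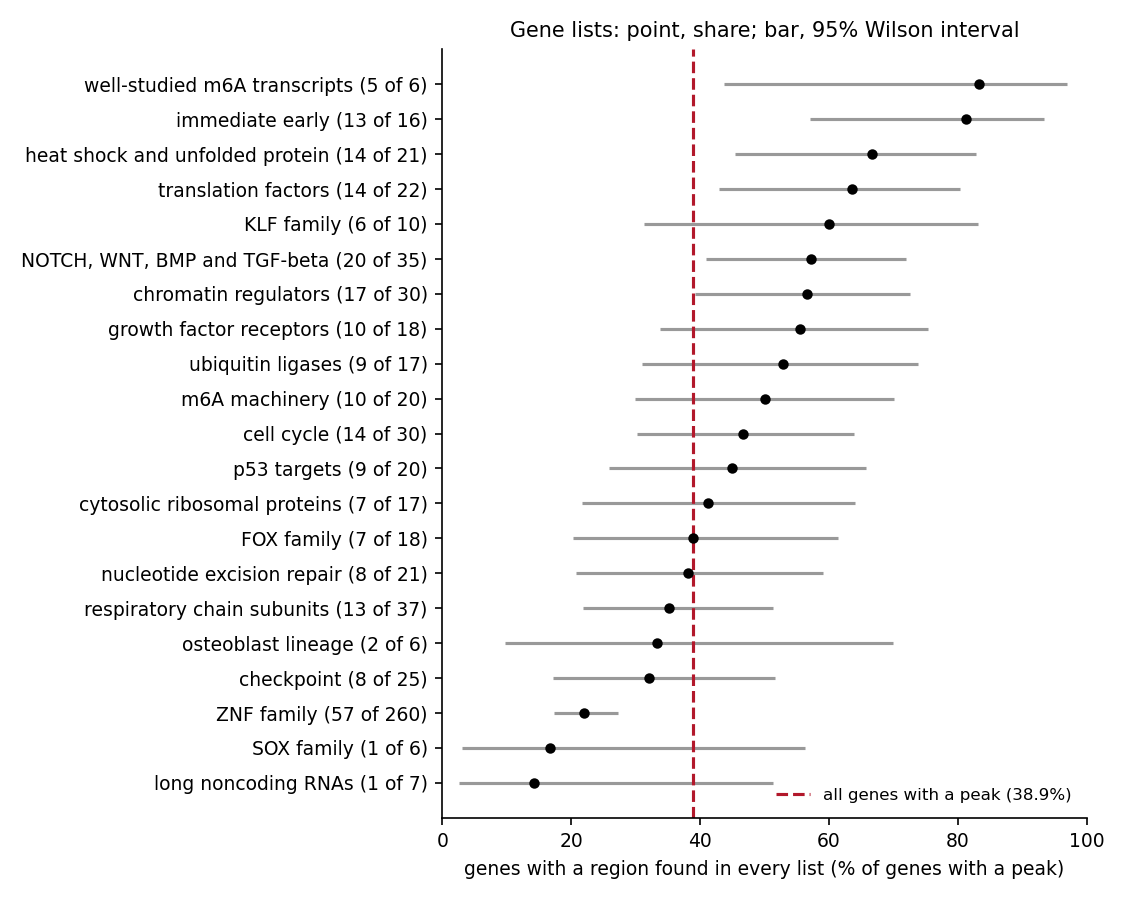
Share of the genes of each list that carried a shared region (horizontal axis, % of the list's genes with a peak), with 95% Wilson intervals for counting error and a dashed line at 38.9%, the share over all genes with a peak. Lists with at least 5 genes with a peak are drawn, from 83.3% for the closely studied m6A transcripts to 14.3% for long noncoding RNAs.

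Chromatin regulators held 58 shared regions, of 173 in all, on 17 of 30 genes (56.7%, 39.2 to 72.6). The count was 16 genes when 50 shared bases were required, since CREBBP was lost. SRCAP at bases 5294 to 5971 had 560 bases in KO plus UV, 605 in KO minus UV, 678 in WT plus UV and 596 in WT minus UV. The demethylase KDM5A had 511 bases in KO plus UV, 449 in KO minus UV, 640 in WT plus UV and 655 in WT minus UV, narrower in both KO lists. The remodeller CHD8 had 499 bases in KO plus UV, 484 in KO minus UV, 456 in WT plus UV and 420 in WT minus UV, wider in both KO lists. Heat shock and unfolded protein genes gave 14 of 21 (66.7%, 45.4 to 82.8) and 18 of 39 regions. The mitochondrial chaperone HSPA9 had 382 bases in KO plus UV, 385 in KO minus UV, 354 in WT plus UV and 373 in WT minus UV. HSPA4 had 434 bases in KO plus UV, 424 in KO minus UV, 437 in WT plus UV and 240 in WT minus UV, with WT minus UV alone short. HSPA9 was wider in both KO lists, as was the lectin chaperone CALR, which spanned 257 to 299 bases. The stress factor ATF4 spanned 221 to 236 bases. HSPA1B is in this count, and its copy HSPA1A is near-identical.

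Translation factors gave 14 of 22 (63.6%, 43.0 to 80.3) and 27 of 51 regions. The initiation factor EIF3A had 234 bases in KO plus UV, 265 in KO minus UV, 362 in WT plus UV and 366 in WT minus UV. The release factor ETF1 had 214 bases in KO plus UV, 218 in KO minus UV, 261 in WT plus UV and 261 in WT minus UV. EIF3A and ETF1 were narrower in both KO lists. The elongation factor EEF2 spanned 220 to 237 bases, and EIF4G2 198 to 244 bases. Cytosolic ribosomal protein genes, which have many processed pseudogenes, gave 7 of 17 (41.2%, 21.6 to 64.0) and 7 of 18 regions. Of these 7 shared regions, 0 began within the first 100 bases. RPS4X had 163 bases in KO plus UV, 164 in KO minus UV, 162 in WT plus UV and 162 in WT minus UV, and RPL4, RPL5 and RPL13 spanned 169 to 209 bases, 132 to 177 bases and 100 to 130 bases in that order of genes. RPL4 and RPL5 were wider in both KO lists, RPS4X by 1 base or more, and RPL13 was narrower in both. Respiratory chain subunits gave 13 of 37 (35.1%, 21.8 to 51.2) and 13 of 42 regions. Of these 13 shared regions, 9 began within the first 100 bases, against 735 of 5340 over all genes. NDUFB8, a subunit of complex I, had 248 bases in KO plus UV, 261 in KO minus UV, 230 in WT plus UV and 219 in WT minus UV from base 21. UQCRC2 of complex III had 173 bases in KO plus UV, 179 in KO minus UV, 173 in WT plus UV and 179 in WT minus UV from base 58. NDUFAB1 spanned 201 to 239 bases and UQCR10 165 to 166 bases. NDUFB8 was wider in both KO lists, as was UQCR10 by 1 base.

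Genes of the NOTCH, WNT, BMP and TGF-beta pathways gave 20 of 35 (57.1%, 40.9 to 72.0) and 37 of 113 regions. NOTCH2 had 410 bases in KO plus UV, 708 in KO minus UV, 769 in WT plus UV and 715 in WT minus UV. Its ligand JAG1 had 272 bases in KO plus UV, 328 in KO minus UV, 362 in WT plus UV and 326 in WT minus UV. KO plus UV was the narrowest on both. The WNT coreceptor LRP6 spanned 245 to 350 bases, and the receptor FZD7 243 to 280 bases. Growth factor receptors gave 10 of 18 (55.6%, 33.7 to 75.4) and 18 of 52 regions. The single shared region of EGFR had no base covered in all lists, and the count was 9 genes when 50 shared bases were required. ERBB2 had 868 bases in KO plus UV, 816 in KO minus UV, 847 in WT plus UV and 838 in WT minus UV. PDGFRB had 367 bases in KO plus UV, 356 in KO minus UV, 319 in WT plus UV and 336 in WT minus UV. PDGFRB was wider in both KO lists, as was AXL, which spanned 226 to 243 bases. ROR2 spanned 252 to 263 bases. Ubiquitin ligases gave 9 of 17 (52.9%, 31.0 to 73.8) and 18 of 74 regions. CUL1, a scaffold of SCF ligases, had 378 bases in KO plus UV, 425 in KO minus UV, 298 in WT plus UV and 293 in WT minus UV, wider in both KO lists. Each KO list held 2 peaks in that region and each WT list 1. HUWE1 spanned 292 to 308 bases, BTRC 220 to 393 bases and RNF213 240 to 302 bases.

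Cell cycle genes gave 14 of 30 (46.7%, 30.2 to 63.9) and 20 of 63 regions. MCM3, a subunit of the replicative helicase, had 201 bases in KO plus UV, 201 in KO minus UV, 200 in WT plus UV and 201 in WT minus UV. MCM5, of the same complex, had 194 bases in KO plus UV, 193 in KO minus UV, 195 in WT plus UV and 194 in WT minus UV. The lists were within 2 bases of each other on both. MCM2 spanned 320 to 359 bases and the kinase CDK2 213 to 236 bases.

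Transcription factor families differed in their counts. KLF genes gave 6 of 10 (60.0%, 31.3 to 83.2) and 12 of 25 regions. KLF11 had 699 bases in KO plus UV, 656 in KO minus UV, 741 in WT plus UV and 737 in WT minus UV. KLF16 had 225 bases in KO plus UV, 231 in KO minus UV, 268 in WT plus UV and 247 in WT minus UV. KLF16 was narrower in both KO lists, and so was KLF11 before but not after division by the list medians. KLF6 went the other way, wider in both KO lists, and spanned 421 to 472 bases. KLF9 spanned 228 to 337 bases and overlapped between genotypes. FOX genes gave 7 of 18 (38.9%, 20.3 to 61.4) and 18 of 48 regions. FOXM1, a mitotic regulator, had 546 bases in KO plus UV, 554 in KO minus UV, 529 in WT plus UV and 539 in WT minus UV, wider in both KO lists. FOXK1 spanned 288 to 308 bases, FOXN3 300 to 390 bases and FOXJ3 205 to 370 bases, of which FOXJ3 was wider in both KO lists. Of 6 SOX genes with a peak, SOX9, a factor of cartilage development, alone had a shared region, with 173 bases in KO plus UV, 179 in KO minus UV, 197 in WT plus UV and 176 in WT minus UV. ZNF genes gave 57 of 260 (21.9%, 17.3 to 27.3), and 79 of their 536 regions were shared. ZNF689 had 489 bases in KO plus UV, 476 in KO minus UV, 616 in WT plus UV and 686 in WT minus UV. ZNF142 had 380 bases in KO plus UV, 376 in KO minus UV, 480 in WT plus UV and 440 in WT minus UV. ZNF689 and ZNF142 were narrower in both KO lists. ZNF496 had summed widths of 431 to 523 bases and ZNF703 of 350 to 451 bases. ZNF genes with a peak numbered 93 in KO plus UV, 160 in KO minus UV, 196 in WT plus UV and 177 in WT minus UV. The whole lists also differed in length, with 9471, 13852, 15465 and 13989 peaks in that order.

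Of 10 osteoblast lineage genes, 6 had a peak and 2 a shared region. The matrix gene SPARC had 222 bases in KO plus UV, 241 in KO minus UV, 231 in WT plus UV and 224 in WT minus UV. COL1A1, a collagen chain, had 217 bases in KO plus UV, 211 in KO minus UV, 230 in WT plus UV and 226 in WT minus UV, narrower in both KO lists before but not after that division. Of 6 blood markers 0 had a peak in any list. Of 6 epithelial and 5 neuronal markers, 2 each had a peak and 0 a shared region. A missing mark and a missing transcript cannot be told apart in these lists.

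At the edge of the rule, 15 shared regions were held together by an overlap of under 10 bases and 140 (2.62%) by one of under 50, while the median of this weakest overlap was 171 bases. Just outside it, 19 of 4341 regions with peaks from 3 lists had a peak of the missing list within 10 bases, and 144 (3.32%) within 100. In 2734 of those regions (63.0%) the missing list had no peak on the transcript.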

How the data were processed

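Per the labels' protocols, the authors selected polyA RNA, precipitated m6A RNA and sequenced 50-base single-end reads. TopHat2 2.0.14 and hg38 are named in the submitters' processing notes. The sources used here do not give how peaks were called, at what threshold, or whether replicates were pooled. The deposited values are of another kind than signal (other), namely peak starts and ends in bases along a RefSeq transcript, read as counted from 1 with both ends included.

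Peaks were merged per transcript and widths summed per list and region (Python 3.11.15, pandas 2.3.3, scipy 1.17.1), and the code was tested on simulated data. Of 9674 transcripts, 98.9% matched a RefSeq gene (GRCh38.p14), and 43 shared regions had no symbol. The members, gene lists and naming rule were chosen with earlier results of these data known. Named genes were the 10 with most shared regions, the 5 widest cores, the 5 widest regions with an identical boundary, the 3 largest width ratios per pair and direction, the m6A machinery, up to 4 per gene list by core, and listed genes with a peak in every list but no shared region. Paralogs and assembly factors were dropped from the ribosomal and respiratory lists after the matches were seen. No test was made, since each condition has 1 list.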

Additional observations from a re-analysis of the deposited data

Results flagged for a closer look

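The median log2 ratio of summed peak width in shared regions, plus UV over minus UV, was -0.028 in KO cells and 0.0076 in WT cells. The values have opposite signs, and their difference was not tested, since each genotype has 1 list with UV and 1 without. Both change sign when widths are divided by each list's median width.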

How the results depend on the processing

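No paired analysis was possible because there is 1 list per condition and no value per replicate. Of 144 values recomputed under an alternative, 90 kept their direction and size, 50 moved and 4 reversed. The 48 values of the gene lists were among the 90, but these are counts, which were called kept within 1.5-fold, and some are 0 in each setting. When merging needed 50 shared bases, the NOTCH, WNT, BMP and TGF-beta list gave 19 genes instead of 20, ubiquitin ligases 8 instead of 9 and ZNF genes 56 instead of 57. The number of shared regions stayed within 1.5-fold of 5340 under each alternative, but came close to that limit with 7928 when KO plus UV was left out. It was 6036 without KO minus UV, 5645 without WT plus UV and 6141 without WT minus UV. One of these alternatives, at 3942, counts genes with a peak in every list and not regions. The share of shared regions among all regions was 24.2% when merging needed 50 shared bases, 24.0% with 50% of the narrower peak, 27.3% when peaks within 100 bases were merged and 23.9% without peaks of 100 bases. Requiring 3 lists only gave 39.3% without KO plus UV, 31.4% without KO minus UV, 29.9% without WT plus UV and 31.8% without WT minus UV, since fewer lists had to contribute. Dividing by each list's median width reversed the median log2 width ratios, to 0.021 for KO plus over minus UV, -0.016 for WT plus over minus UV, 0.040 for KO over WT with UV and 0.023 without UV. At 2-fold instead of 1.5-fold, wider and narrower shared regions, of 5340, numbered 64 and 228 for KO with UV, 138 and 42 for WT with UV, 37 and 281 for KO over WT with UV, and 119 and 103 without UV. Shares over all regions in both lists of a pair were not computed at 2-fold or with 1 peak per list. In the 4483 shared regions with 1 peak per list, wider and narrower ones at 1.5-fold numbered 154 and 431 for KO with UV, 262 and 80 for WT with UV, 84 and 551 for KO over WT with UV, and 255 and 230 without UV. In those regions median centre distances were 10 bases for the KO pair and both genotype pairs and 6.5 for the WT pair. Over all shared regions, starts lay 10 bases apart in the KO pair and between genotypes without UV and 11 with UV, and ends 10 bases apart in these pairs and 6 in the WT pair. All-list coverage in regions with 1 peak per list was 67.0%. Shared regions at the transcript start were 10.5% within 50 bases and 17.1% within 200. Against other peaks of the same transcripts, shared-region peaks were wider by 34 bases in KO plus UV, 31 in KO minus UV, 34 in WT plus UV and 32 in WT minus UV. The share of peaks in shared regions was 64.0%, 44.8%, 39.9% and 44.0% when merging within 100 bases and 59.6%, 39.8%, 35.0% and 39.5% without peaks of 100 bases, for KO plus UV, KO minus UV, WT plus UV and WT minus UV. Dividing widths by the list medians, an alternative chosen after seeing the data, gave 836 shared regions narrower and 1511 wider in both KO lists than in both WT lists, against 1486 and 635 as deposited. The cause was not tested where the alternative's construction does not show it.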

Other observations

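A peak in every list did not always mean a shared place. Of 3942 genes with a peak in each list, 223 (5.66%) had no shared region, because the peaks of different lists did not all join on the transcript. They included UBR4, a ubiquitin ligase of the N-degron pathway, the transcription factor E2F1, the chaperones HSPA1A and HSPH1, the inhibitory SMAD6, the bone matrix gene SPP1, and ZNF12, ZNF213, ZNF219, ZNF281, ZNF316 and ZNF322 among the gene lists.

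Chromosomes differed in the share of their regions that was found in all lists. It was 32.0% (28.2 to 36.0) on chromosome 22 and 31.6% (29.1 to 34.2) on chromosome 17, against 14.2% (10.8 to 18.4) on chromosome 13, 18.5% (15.8 to 21.4) on chromosome 4 and 25.7% over all regions. Regions on transcripts listed with a copy number were shared in 65 of 225 cases (28.9%, 23.4 to 35.1). On transcripts with 10 or more regions, 25 of 193 regions (13.0%, 8.93 to 18.4) were shared, against 27.8% (26.6 to 29.0) on transcripts with 2.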
